A study of Sus scrofa with 12 samples.

Results

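The genes described are the porcine MHC class II genes and CD74, their invariant chain, in the ovaries of 12 pregnant sows. They were taken as all probe sets of the array whose only gene symbol is SLA-DRA, SLA-DRB1, SLA-DQA1, SLA-DQB1, SLA-DMA, SLA-DMB, SLA-DOA, SLA-DOB or CD74. A probe set is the group of short probes that reads 1 transcript. Of the 9 genes 8 had such a probe set, 11 probe sets in all, out of 24123 on the array and 6765 genes with a symbol. SLA-DRB1 had 3, SLA-DMA had 2 and the others 1 each, while SLA-DOB had none and was not analysed here.

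The sows belonged to an F2 cross of the Iberian and Meishan breeds and were killed at day 30 of pregnancy. By their EBV, an estimated breeding value, 6 were labelled as of high and 6 as of low prolificacy, the ability to bear large litters. Each sow had 1 Affymetrix array, for a sample described as the average of her left and right ovary. Whole ovary was used, so a lower value can mean fewer cells of a type or less RNA per cell, and these cannot be told apart. Values are log2 expression after GCRMA, a background correction and normalization done by the authors.

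MHC class II molecules, called SLA in the pig, show peptides from engulfed proteins to helper T cells. SLA-DRA pairs with SLA-DRB1, and SLA-DQA1 with SLA-DQB1, to form the molecules at the cell surface. CD74 guards the new pair and fills its groove on the way to the endosome. There SLA-DMA with SLA-DMB frees the groove for peptide, and SLA-DOA with SLA-DOB restrains that step. Macrophages, dendritic cells and B cells carry these molecules, as do many pig T cells and, in cattle, luteal cells. Interferon gamma raises them through CIITA, the coactivator that assembles with the RFX and NF-Y complexes on class II promoters.

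Array medians lay between 4.81 and 4.97, and each array had 55.5% to 56.4% of its probe sets above 4. Luteal markers were bright in all sows, with a mean over 7 genes from 13.04 to 13.76 in high and from 13.33 to 13.60 in low prolificacy sows. Markers of growing follicles varied most, with a mean over 6 measured genes from 7.07 to 10.69 in high and from 8.19 to 10.51 in low prolificacy sows. Of the 11 such markers with a probe set, AMH, CYP19A1, FOXL2 and INHBB were under 4 in every sow. FSHR was above 4 in 3 sows only, so these 5 have no part in that mean. High 2 and high 3, the sows numbered 2 and 3 of the high group, had the lowest mean rank correlation with the other arrays, 0.982 and 0.981 against up to 0.989. High 3 was among the lowest sows in the surface class II genes and CD74, and high 2 in SLA-DRA, SLA-DRB1, SLA-DMB and CD74 but not in SLA-DQB1 or SLA-DQA1. The differences and the relations with SLA-DRA are therefore also given without both.

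The surface class II genes and CD74 were expressed in every ovary and did not differ between the groups beyond the spread among sows. Of the 11 probe sets, 8 were above 4 in all 12 sows and were tested among 13390 probe sets above 4 in at least 6 sows. Of these 8, 7 had a higher mean in high and 1 in low prolificacy sows. None passed an adjusted p of 0.05 with limma, where 0% of all probe sets passed, and none had an unadjusted p under 0.05, where 5.64% of all did. By direction, 2.26% of all probe sets had such a p and a higher, and 3.38% a lower, mean in high prolificacy sows. In 0 of the 8 were the groups without overlap, against 0.471% of all probe sets.

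SLA-DRA, the nearly invariant alpha chain of the DR molecule, ran from 8.70 through a median of 9.69 to 10.40 in high prolificacy sows, and from 9.16 through 9.62 to 10.05 in low prolificacy sows. Its lowest values were those of high 3 and high 2 and its highest those of high 5 and high 6, so the low group lay inside the range of the high group. The means were 9.60 ± 0.69 in high and 9.56 ± 0.32 in low prolificacy sows (SD, n = 6 each), a log2 difference of 0.041 ± 0.28 (SE) with a 95% interval from -0.57 to 0.65 (limma adjusted p = 0.991). This difference turned in sign without any 1 of 4 sows, ranging from -0.12 without high 5 to 0.22 without high 3.

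SLA-DRB1, the variable beta chain that pairs with it, ran from 9.09 through 9.996 to 10.80 in high prolificacy sows, and from 9.28 through 9.65 to 10.44 in low prolificacy sows, in its bright probe set. High 6 was highest and high 2 lowest, and the groups overlapped over most of their range. The means were 9.93 ± 0.66 for the high and 9.72 ± 0.41 for the low group, which differ by 0.21 with a 95% interval from -0.42 to 0.83 (limma adjusted p = 0.962). The other SLA-DRB1 probe sets stood at the floor in all 12 sows, at 2.47 to 2.58 and 1.72 to 1.76 in high prolificacy sows and at 2.50 to 2.55 and 1.73 to 1.74 in low prolificacy sows. They were not tested, and how far each probe set matches the alleles these sows carry was not tested.

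The DQ pair, the other surface class II molecule of the pig, gave a similar picture. SLA-DQA1 ran from 7.98 through 8.60 to 9.69 in high prolificacy sows, and from 7.85 through 8.76 to 9.02 in low prolificacy sows. Low 6 held the lowest value of all sows, and high 5 and high 6 stood above every sow of the low group. Its means were 8.80 ± 0.68 for the high and 8.61 ± 0.42 for the low group, which differ by 0.19 with an interval from -0.46 to 0.83 (limma adjusted p = 0.973). SLA-DQB1, its beta chain, ran from 8.71 through 9.93 to 10.62 in high prolificacy sows, and from 9.34 through 9.58 to 10.30 in low prolificacy sows. High 3 stood below every other sow, and low 3 stood well above the rest of its group. The means of SLA-DQB1 were 9.91 ± 0.69 in high and 9.65 ± 0.34 in low prolificacy sows. Their difference of 0.25 (1.19-fold) was the widest of the 8, with an interval from -0.37 to 0.88 (limma adjusted p = 0.948).

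**Figure D1:**
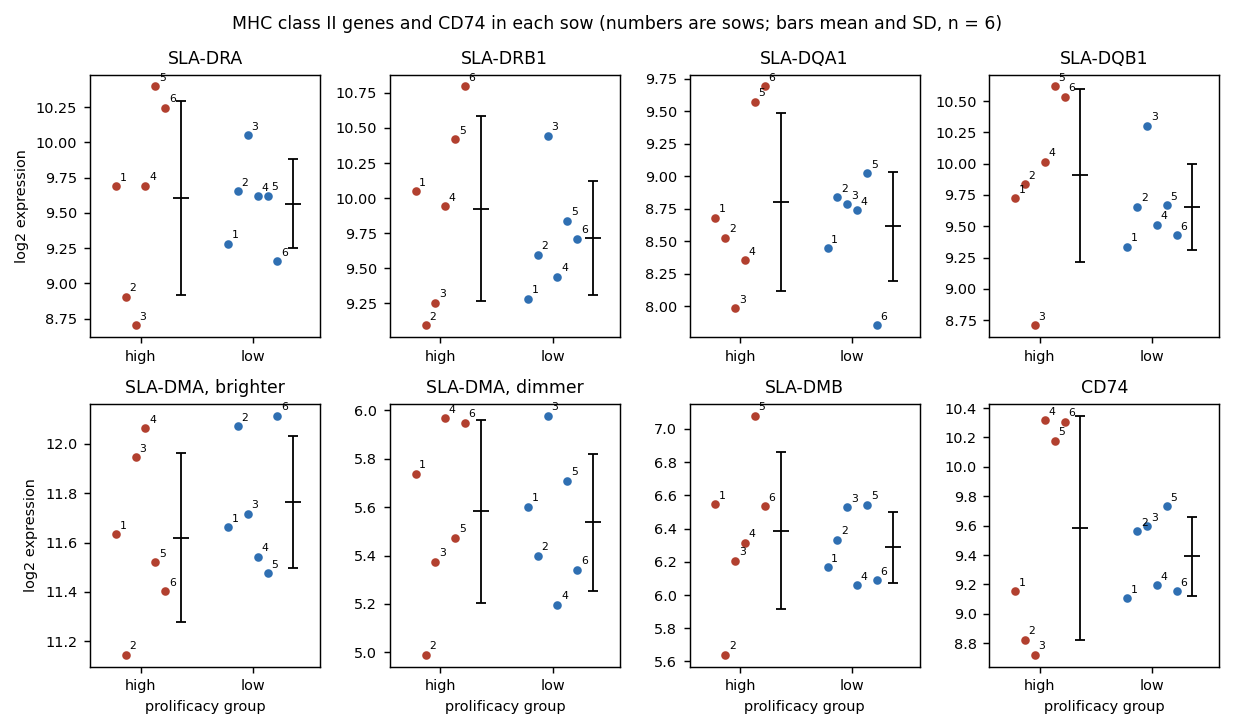
Log2 expression of the 8 probe sets above 4, one panel each, with high prolificacy sows on the left and low prolificacy sows on the right. Points are sows, labelled by animal number, and bars give the mean and SD of 6 sows. In every panel the groups overlap, and the SD is larger in the high group, as for CD74 with 0.76 in high and 0.27 in low prolificacy sows.

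CD74, which lies on chromosome 2 and apart from the SLA genes of chromosome 7, ran from 8.72 through 9.67 to 10.32 in high prolificacy sows, and from 9.11 through 9.38 to 9.73 in low prolificacy sows. High 4, high 5 and high 6 stood above every low sow, while high 2 and high 3 stood below every low sow. The means were 9.58 ± 0.76 for the high and 9.39 ± 0.27 for the low group, which differ by 0.19 with an interval from -0.46 to 0.85 (limma adjusted p = 0.972). The low group thus lay between those upper and lower values, with high 1 among it.

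The peptide-loading pair was read by 3 probe sets. SLA-DMB ran from 5.64 through 6.42 to 7.08 in high prolificacy sows, and from 6.06 through 6.25 to 6.54 in low prolificacy sows, with high 2 lowest and high 5 highest. Its means were 6.39 ± 0.47 for the high and 6.29 ± 0.22 for the low group, which differ by 0.10 (interval from -0.33 to 0.53, limma adjusted p = 0.985). SLA-DMA was read by a brighter and a dimmer probe set, which did not follow each other. The brighter ran from 11.15 through 11.58 to 12.06 in high prolificacy sows and from 11.48 through 11.69 to 12.11 in low prolificacy sows, with low 6 highest and high 2 lowest. It was the only 1 of the 8 with a lower mean in the high group, 11.62 ± 0.34 against 11.76 ± 0.27, a difference of -0.14 (interval from -0.52 to 0.23, limma adjusted p = 0.950). The dimmer ran from 4.99 through 5.61 to 5.97 in high prolificacy sows and from 5.20 through 5.50 to 5.98 in low prolificacy sows, a difference of 0.045 (interval from -0.35 to 0.44, limma adjusted p = 0.990). High 2 was lowest and low 3 highest there.

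SLA-DOA, the alpha chain of the DM inhibitor, stood at the floor of the array, between 1.85 and 1.89 in high and between 1.86 and 1.97 in low prolificacy sows. It was not tested, and no order can be read from values at this level. GCRMA draws dim probe sets toward such a floor, so a low level of the transcript was not detectable here.

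**Figure D2:**
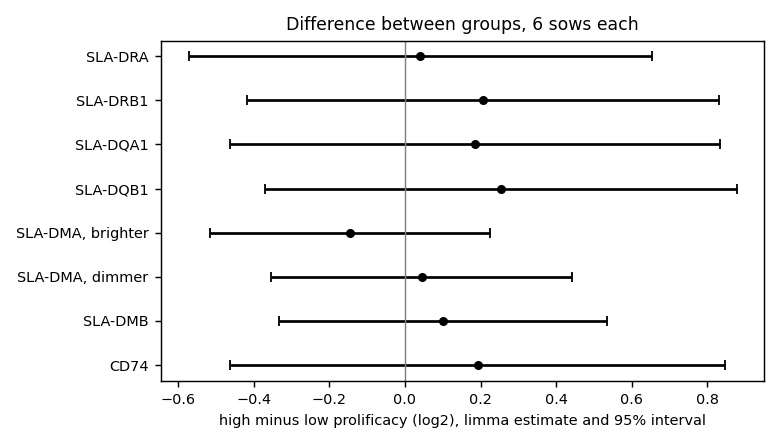
Differences of the 8 probe sets, high minus low prolificacy, on the log2 scale, with limma estimates as points and 95% intervals as bars. Every interval spans 0, and the estimates lie between -0.14 for the brighter SLA-DMA probe set and 0.25 for SLA-DQB1.

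The median difference over the 8 probe sets was 0.14, where the median over all 13390 was -0.010 and 47.6% of all were above 0. The 8 probe sets share sows and varied together, so their directions are not independent. The median rested on few animals, ranging from 0.021 without high 6 to 0.28 without high 3. Without high 2 and high 3 it was 0.45, and with array weights 0.41. Without those 2 sows CD74 differed by 0.60, SLA-DRB1 by 0.58 and SLA-DQB1 by 0.57, each with a limma adjusted p of 0.907. In that fit 0 of the 13390 probe sets passed an adjusted p of 0.05. SLA-DQA1 then differed by 0.46, SLA-DRA by 0.44, SLA-DMB by 0.33, and the SLA-DMA probe sets by 0.24 (dimmer) and -0.11 (brighter). The smallest limma adjusted p of the 8 was 0.907. High 2 and high 3 were the 2 lowest high sows in SLA-DRA, SLA-DRB1, CD74 and SLA-DMB, so leaving them out raises the mean of the high group there.

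The high group was more spread than the low group for all 8 probe sets, but this was common on these arrays. The SD was larger in high prolificacy sows for 73.8% of all probe sets tested. It was at least 1.5 times that of the low group for 6 of the 8 probe sets and for 44.2% of all. The SD ratio was largest for CD74, at 2.83, and smallest for the brighter SLA-DMA probe set, at 1.27. Over the 12 sows the SD of SLA-DRA, SLA-DRB1, SLA-DQA1, SLA-DQB1 and CD74 lay between 0.51 and 0.56, and only 13.97% to 16.8% of all tested probe sets had a larger one. The SLA-DMA probe sets, at 0.30 and 0.32, and SLA-DMB, at 0.35, were nearer the middle.

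Ovaries high in 1 surface class II gene tended to be high in the others. The Pearson r with SLA-DRA over the 12 sows was 0.88 for SLA-DRB1 (rho = 0.91, permutation p = 0.00018), 0.87 for SLA-DQB1 (rho = 0.84, permutation p = 0.00041) and 0.84 for SLA-DQA1 (rho = 0.71, permutation p = 0.00094). For CD74 it was 0.83 (rho = 0.83, permutation p = 0.00085), although that gene lies on another chromosome, and for SLA-DMB 0.80 (rho = 0.76, permutation p = 0.00167). The permutation p of rho for these 5 genes ran from 0.00013 for SLA-DRB1 to 0.0129 for SLA-DQA1. Of the non-member probe sets tested, 2.81% reached an r of 0.6 with SLA-DRA, a level reached by 5 of the 7 other member probe sets tested.

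Adjusted over the 8 relations computed, these 5 had permutation p values from 0.00144 to 0.00267, and adjusted over all 13389 probe sets set against SLA-DRA from 0.402 to 0.466, where none of the 13389 passed. Without high 3 and high 5, the sows farthest from the SLA-DRA median, the r of the 5 ran from 0.72 to 0.89, and with each group centred on its own mean from 0.80 to 0.89. Without high 2 and high 3 it ran from 0.72 for CD74 to 0.95 for SLA-DQB1 (permutation p adjusted over the 8 relations from 0.00016 to 0.0292). The 15 pairs among the 6 genes other than SLA-DMA had r between 0.56, for SLA-DQB1 with SLA-DMB, and 0.88.

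**Figure D3:**
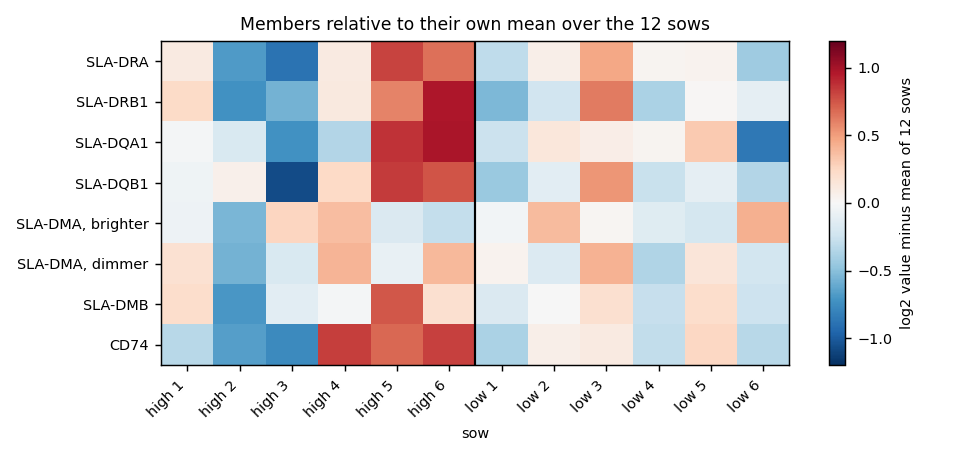
Log2 values of the 8 probe sets (rows) in each sow (columns, high prolificacy left of the line and low prolificacy right), as the difference from the probe set's mean over the 12 sows. High 5 and high 6 are above the mean in SLA-DRA, SLA-DRB1, SLA-DQA1, SLA-DQB1, SLA-DMB and CD74, high 3 is below it in all of these, and the brighter SLA-DMA row does not follow.

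SLA-DMA departed from this pattern in its brighter probe set. Its r with SLA-DRA was -0.17 (rho = -0.17, permutation p = 0.587), turning to 0.061 without high 3 and high 5, and its r with SLA-DQA1 was -0.56 as a description. The dimmer probe set followed SLA-DRA more closely, with an r of 0.59 (rho = 0.71, permutation p = 0.04335, adjusted over the 8 relations 0.0578). Without high 3 and high 5 that r was 0.78 (permutation p adjusted over the 8 relations 0.0186), and without high 2 and high 3 it was 0.40. For the brighter probe set it was -0.52 without high 2 and high 3 (permutation p adjusted over the 8 relations 0.170). The SLA-DMA probe sets had an r of 0.18 with each other (rho = 0.056, permutation p = 0.585, and -0.22 without the sows farthest from the median of the dimmer one). Both carry the same symbol and accession in the annotation, and which of them reads the SLA-DMA transcript was not tested. For SLA-DOA, at the floor, the r of 0.051 (rho = 0.098, permutation p = 0.858) has no reading.

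**Figure D4:**
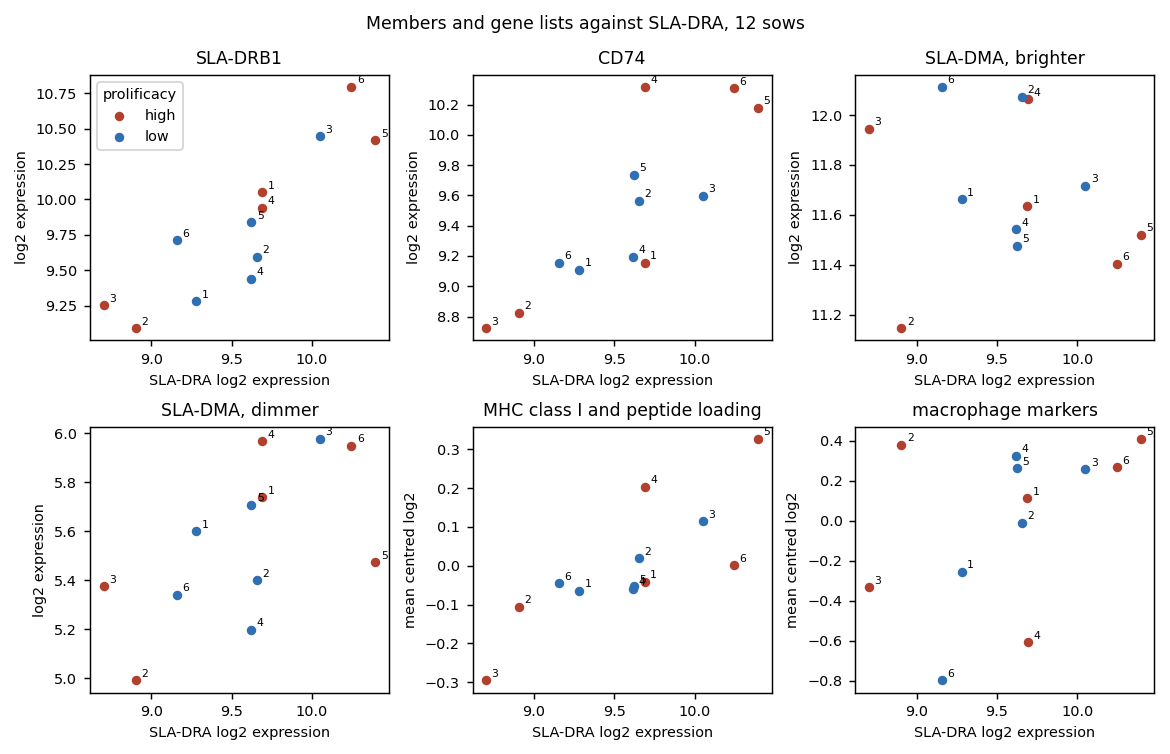
SLA-DRA log2 expression (horizontal) against SLA-DRB1, CD74, both SLA-DMA probe sets and the scores of 2 gene lists (mean log2 value of the measured genes after centring each gene) in 12 sows, labelled by animal number. SLA-DRB1 and CD74 increase with SLA-DRA (r = 0.88 and 0.83), the brighter SLA-DMA probe set does not (r = -0.17), and the macrophage score increases less closely (r = 0.46), with high 2 above and high 4 below the other sows near their SLA-DRA level.

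In the RefSeq annotation of assembly Sscrofa11.1 the member genes of chromosome 7 lie within 25 consecutive genes, from SLA-DRA through the DRB, DQA and DQB genes and SLA-DOB to SLA-DMB, SLA-DMA and SLA-DOA. Between SLA-DOB and SLA-DMB lie genes of the class I pathway. PSMB8, an immunoproteasome subunit there, had an r of 0.70 with SLA-DRA (rho = 0.89, permutation p = 0.00217, adjusted over the 7 relations of this kind 0.00506, and 0.63 without the 2 farthest sows). TAP1, a peptide transporter beside it, had an r of 0.25 (rho = 0.22, permutation p = 0.421, adjusted 0.492, and -0.38 without the 2 farthest sows). PSMB8 averaged 6.32 ± 0.50 for the high and 5.99 ± 0.053 for the low group, which differ by 0.33 (limma adjusted p = 0.899), so its values hardly varied among low sows.

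The unnamed locus LOC106504372 lies in the same stretch, between the SLA-DRB5 and SLA-DYB pseudogenes. Its probe set followed the bright SLA-DRB1 probe set at r = 0.95 (rho = 0.94, permutation p = 2e-05, adjusted over the 7 relations 0.00014). That r was 0.91 without the 2 farthest sows, which for relations with SLA-DRB1 are high 2 and high 6, farthest from its median. Another 3 probe sets carry both symbols and are no members, since they cannot be assigned to 1 gene. Of these, 1 ran from 4.82 to 6.21 in high and from 4.58 to 7.34 in low prolificacy sows and had an r of -0.27 with SLA-DRB1 (rho = -0.22, permutation p = 0.395, adjusted 0.492, and -0.29 without the 2 farthest sows). The second ran from 7.62 to 10.43 in high and from 6.38 to 8.76 in low prolificacy sows, with an r of 0.55 (rho = 0.41, permutation p = 0.0607, adjusted 0.106, and 0.25 without the 2 farthest sows). The third stood at the floor, from 2.97 to 3.05 in high and from 2.89 to 3.20 in low prolificacy sows. The first stood at 6.76, 7.33, 6.81 and 7.34 in low 1, low 2, low 4 and low 5, and at 4.68 and 4.58 in low 3 and low 6. These probe sets did not rank the sows alike, and what each reads in these animals was not tested.

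Factors that act on class II promoters were at the floor or did not pass the test. CIITA stood between 2.85 and 3.23 in high and between 2.63 and 2.91 in low prolificacy sows, under 4 in every sow, as did CREB1, a factor that binds class II promoters. Of 11 factors listed, 8 had a probe set and 6 were measured, 4 of them with a higher and 2 with a lower mean in the high group and a median difference of 0.13. IRF1, which acts downstream of interferon gamma, stood at 7.48 ± 0.33 against 7.22 ± 0.22 in high and low prolificacy sows (difference 0.26, limma adjusted p = 0.917). The myeloid factors SPI1 and IRF8 differed by 0.30 and 0.20. RFXANK, an RFX subunit, differed by -0.14, and the NF-Y subunits NFYB and NFYC by -0.054 and 0.055, with limma adjusted p values from 0.929 to 0.988 over these 5. RFX5 and RFXAP were not analysed here.

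The endosomal list holds proteases and a reductase that prepare peptides, and also sorting and membrane genes of that route. None of its 14 measured genes was called. The median difference was -0.073, against -0.010 over all probe sets tested, with 13 means lower in high prolificacy sows, where 47.6% of all probe sets had a difference above 0. These genes share sows, so their directions are not independent. CTSZ, an endosomal protease, averaged 6.84 ± 0.36 for the high and 7.20 ± 0.41 for the low group, which differ by -0.36 (limma adjusted p = 0.899). IFI30, the thiol reductase that unfolds antigens, differed by -0.27, CTSD by -0.20 and CTSH by -0.11. CTSS, the protease that trims the invariant chain, differed by -0.013, LGMN, an asparagine-specific protease, by 0.077, and CTSB by -0.099. MARCH8, a ligase that removes class II from the surface, differed by -0.090, AP2M1, of endocytic coats, by -0.085, LAMP1 by -0.060, CD63 and RAB7A by -0.055 each, AP1M1 by -0.044 and LAMP2 by -0.011. This list had an r of 0.65 with SLA-DRA (rho = 0.59, permutation p = 0.0218, adjusted over 10 lists 0.0728, 0.54 without high 3 and high 5, and 0.40 without high 2 and high 3).

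The interferon gamma response had 9 measured genes, 5 with a higher and 4 with a lower mean in the high group and a median difference of 0.047. GBP1, an interferon-induced GTPase, differed by 0.76 and SOCS1, an inhibitor of the pathway, by -0.75 (limma adjusted p = 0.752 and 0.839). GBP2 differed by 0.25. IFNG itself, like CXCL9, was under 4 in every sow. The list score had an r of 0.17 with SLA-DRA (rho = 0.17, permutation p = 0.605, adjusted over 10 lists 0.680), turning to -0.35 without high 3 and high 5, and 0.36 without high 2 and high 3.

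Class I genes, whose products show peptides from inside the cell, had 13 measured members, 7 higher and 6 lower in the high group, with a median difference of 0.041. SLA-3, a class I heavy chain, differed by 0.25, PSMB8 by 0.33, PDIA3 and CANX, chaperones of assembly, by -0.18 and -0.089 (limma adjusted p from 0.899 to 0.950). Their score had the closest relation with SLA-DRA of the 10 lists, with an r of 0.80 (rho = 0.90, permutation p = 0.00219, adjusted over 10 lists 0.0219). The r was lower without the outer sows, at 0.53 without high 3 and high 5 and 0.66 without high 2 and high 3 (permutation p adjusted over the lists 0.339 and 0.0952). Within the groups it was 0.80 among the 6 high and 0.79 among the 6 low prolificacy sows, as a description. The score takes the brightest probe set of each gene and includes PSMB8. For B2M that probe set had an r of -0.89 with the mean centred value of the measured member genes. A B2M probe set nearly as bright, which is not in the score, had 0.78.

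**Figure D5:**
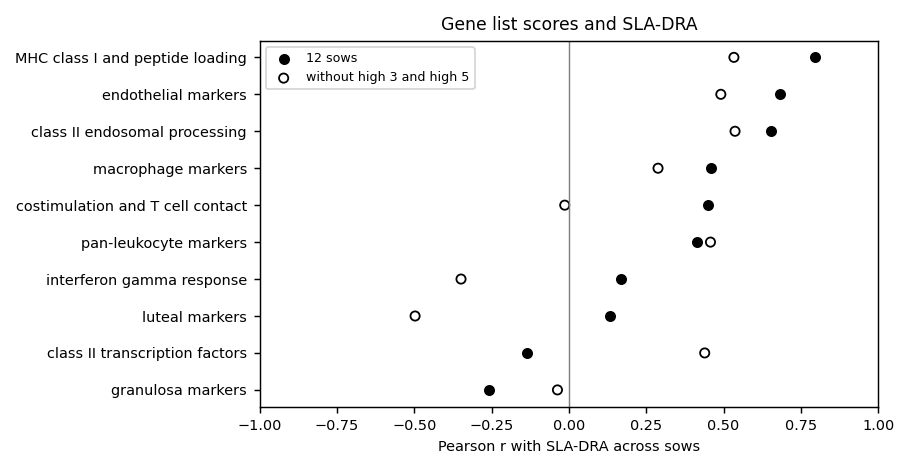
Pearson r of 10 gene list scores with SLA-DRA across sows, over all 12 sows (filled) and without high 3 and high 5, the sows farthest from the SLA-DRA median (open). Class I and peptide loading has the highest r, 0.80, which is 0.53 without those sows.

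Markers of the cells that could carry class II were set beside these values. Of 20 macrophage markers 14 had a probe set and 9 were measured, with a mean level from 6.60 to 7.61 in high and from 6.41 to 7.53 in low prolificacy sows. CD5L, FCGR1A, ITGAM, MARCO and SIGLEC1 were under 4 in every sow, while CD163, a scavenger receptor, differed by 0.53, MRC1, the mannose receptor, by 0.32, and AIF1 and FCER1G by -0.23 and -0.21 (limma adjusted p from 0.929 to 0.947). The macrophage score had an r of 0.46 with SLA-DRA (rho = 0.34, permutation p = 0.131, adjusted over 10 lists 0.284). It was 0.29 without high 3 and high 5 and 0.70 without high 2 and high 3 (permutation p adjusted over the lists 0.0952), and 0.34 among the 6 high and 0.81 among the 6 low prolificacy sows, as a description. Among those low sows the r of the 10 lists ran from -0.89 for granulosa to 0.89 for costimulation markers. It was 0.79 for class I there, so a high r in the low group was not particular to macrophage markers. High 5, highest in SLA-DRA, had the highest macrophage score, 0.41, high 6 had 0.27, and high 3, lowest in SLA-DRA, had -0.33. Against this order, high 4 had -0.61 with the highest CD74 of all sows, and high 2 had 0.38 with low CD74, SLA-DRA and SLA-DRB1. The part of macrophage content in the class II values was not tested.

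Other leukocyte lists were mostly at the floor. Of 11 T and NK cell markers with a probe set 10 were under 4 in every sow, among them CD3D, CD3E and CD3G of the T cell receptor complex and CD8A, and only CD247 was measured (difference 0.040). CD79B and TNFRSF17, of B and plasma cells, were under 4 in every sow, while JCHAIN, which joins antibody units, averaged 6.91 ± 0.19 for the high and 6.74 ± 0.56 for the low group. The dendritic cell genes CCR7, CD1E, CD209 and XCR1 were under 4 in every sow, with FSCN1 and CD83, which are also made by other cells, at differences of -0.15 and -0.20. CD80, CD86, CD4 and CTLA4, of the contact between T cells and presenting cells, were under 4 as well, and CD40, ICAM1 and CD58 differed by 0.055, -0.14 and 0.033, with an r of their score with SLA-DRA of 0.45 (rho = 0.41, permutation p = 0.142, adjusted over 10 lists 0.284, -0.014 without high 3 and high 5, and 0.70 without high 2 and high 3). Of 5 neutrophil markers with a probe set none was above 4 in at least 6 sows, and none was tested. ELANE, FCN1 and S100A8 were under 4 in every sow. S100A9 reached 6.45 in high and 3.04 in low prolificacy sows, and S100A12 3.78 and 4.47, each above 4 in 2 sows. Values under 4 do not show that these cells are absent.

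Pan-leukocyte markers had 5 measured genes with a mean level from 5.91 to 7.15 in high and from 5.84 to 7.43 in low prolificacy sows. LAPTM5, a lysosomal protein of blood cells, differed by -0.33, ARHGDIB by 0.20, ITGB2 by -0.17 and LCP1 by -0.16, while PTPRC was under 4 in every sow. The score had an r of 0.41 with SLA-DRA (rho = 0.51, permutation p = 0.183, adjusted over 10 lists 0.305, 0.46 without high 3 and high 5, and 0.54 without high 2 and high 3). With this score as a covariate the median difference of the 8 class II and CD74 probe sets was 0.16, close to the 0.14 without it. The mean level of these markers was 6.73 in high and 6.80 in low prolificacy sows, so the covariate could hardly move that median. The part of leukocyte content in the class II values was not tested.

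Vessel and follicle markers were set beside the members too. The endothelial score had an r of 0.68 with SLA-DRA (rho = 0.53, permutation p = 0.0105, adjusted over 10 lists 0.05235, 0.49 without high 3 and high 5, and 0.65 without high 2 and high 3). High 5, highest in SLA-DRA, had the highest endothelial score, 0.65, and also the highest macrophage, class I (0.33) and costimulation (0.42) scores. CLDN5, of endothelial junctions, differed by -0.28, VWF by 0.14, TIE1 by 0.11 and TEK by -0.10. The granulosa score had an r of -0.26 (rho = -0.45, permutation p = 0.416, adjusted over 10 lists 0.594, -0.037 without high 3 and high 5, and -0.46 without high 2 and high 3). Its 6 measured genes all had lower means in the high group, while 47.6% of all probe sets tested had a higher mean there. These genes share sows, so their directions are not independent, and none was called. The oestrogen enzymes CYP19A3 and HSD17B1 differed by -1.19 and -0.96, NR5A2 by -0.10 and INHBA by -0.11 (limma adjusted p from 0.948 to 0.988). The interval ran from -4.53 to 2.15 for CYP19A3 and from -3.25 to 1.33 for HSD17B1. The SD of CYP19A3 was 3.66 in high and 2.12 in low prolificacy sows. With the granulosa score as a covariate the median difference of the 8 was 0.10. The luteal score had an r of 0.13 (rho = -0.0070, permutation p = 0.680, adjusted over 10 lists 0.680, -0.50 without high 3 and high 5, and -0.23 without high 2 and high 3), with RLN2 differing by -0.086, CYP11A1 by -0.20, LHCGR by 0.33 and SCARB1 by -0.13. The class II transcription factor score had an r of -0.14 (rho = 0.014, permutation p = 0.678, adjusted over 10 lists 0.680), 0.44 without high 3 and high 5, and 0.32 without high 2 and high 3. In the red cell and plasma list HBB differed by -0.25 and ALAS2 by -0.27. ALB, above 4 in only 4 sows and so not tested, ran from 2.04 to 8.67 in high and from 2.16 to 12.61 in low prolificacy sows.

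The genes most like the class II pattern were found among 5072 other genes by Pearson r over 12 sows, as a description. The pattern is the mean centred value of the 7 measured member genes, each by its brightest probe set. It thus includes the brighter SLA-DMA probe set, which did not follow the others. LOC106504372 came first at 0.90. Its probe set followed that of SLA-DRB1, itself part of the pattern, at r = 0.95, and 3 probe sets carry both symbols. Whether it reads a transcript other than SLA-DRB1 was not tested, so its rank is no separate result. LOC106504372 was followed by LRP10 at 0.83, MKKS, the small GTPase RALB and the glucocorticoid-induced TSC22D3 at 0.81 each, and the mitochondrial import subunit TOMM5 and the lipid peroxidase GPX4 at 0.80 each. ABCD4 stood at 0.80, RGS5, a pericyte gene, at 0.79 and the calcineurin subunit PPP3CA at 0.79. In all, 199 genes had an r of at least 0.6 and 100 of at most -0.6.

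At the other end stood B2M, the light chain of class I molecules, at -0.89, BRD7 at -0.86, JARID2 at -0.83, beta actin ACTB at -0.81 and WDR70 at -0.79. These are the values of the brightest probe set of each gene. Other probe sets of B2M gave another answer: the 9 tested had r from -0.89 to 0.78, and a probe set nearly as bright as the first, at a mean of 13.95 against 14.03, had an r of 0.78. The dimmer ACTB probe set had an r of 0.56. The negative relation of B2M and ACTB with the class II pattern thus held for some of their probe sets and not for others.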

How the data were processed

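The deposited values are log2 expression per probe set, made by the authors with GCOS, the scanner software, and GCRMA, per the submitters' processing notes. Versions were not stated there; the range of the values, 0.97 to 15.34, shows the log2 scale. The table holds 24123 probe sets in 12 sows. Symbols came from the array annotation, where 10099 probe sets had 1 symbol, 198 several and 13826 none. Entrez IDs of 9989 probe sets were found in RefSeq, and 0 symbols changed. The 124 control probe sets were left out.

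Probe sets above 4 in at least 6 sows were compared, high minus low, in R 4.3.3 with limma 3.58.1 (lmFit, then eBayes), two-sided, with no covariate, and Benjamini-Hochberg adjustment over all 13390. Groups came from the titles. Correlations used 100000 permutations of the sows, two-sided. The number of sows limits the precision: the distance from estimate to bound of a 95% interval was 0.35 at the median. The steps were tested on simulated data.

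The members and lists were chosen with earlier results of these data known. Genes named are the members, up to 4 measured genes of each list by smallest p, all measured genes of the transcription factor and endosomal lists, the 10 most and 5 least like the members, and markers at the floor. Some markers above 4 in too few sows to be tested are named as well. Neighbours of the members and other probe sets of B2M and ACTB were added after values were seen. Animals carry numbers 1 to 6 within a group, without stated pairs. Same-numbered sows deviated together, at a correlation over 0.1 across probe sets, in 2 of the 6 pairs, at 0.15 and 0.17. The other pairs ran from -0.46 to 0.084, and no pairing was used.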

Additional observations from a re-analysis of the deposited data

Results flagged for a closer look

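SLA-DQB1 was 10.30 in low 3, set apart from the other low prolificacy sows by 0.66 of the group's range, past the critical value of Dixon's test for 6 samples. Over the 16 groups of values looked at, 1 was set apart in this way, and chance sets apart about 1 in 20.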

How the results depend on the processing

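With no probe set called, the counts stayed at 0 under all alternatives except 1, leaving out low 1, where 1 probe set, no member, passed. Counts over the 12 fits that leave out a sow ran from 0 to 1. The median member difference ran from 0.021 to 0.28 over those fits. It was 0.14 with the animal number as a replicate block, with 0 probe sets called. Each number occurs once in each group, so the block cannot change a member's difference. It changed no call. SLA-DRA turned to -0.12 without high 5, -0.088 without high 6, -0.016 without low 1, -0.041 without low 6 and -0.0095 with the granulosa score as a covariate. Over the fits that leave out a sow SLA-DRA ran from -0.12 to 0.22, SLA-DMB from -0.038 to 0.25 and the dimmer SLA-DMA probe set from -0.032 to 0.16. The dimmer SLA-DMA probe set turned to -0.032 without high 4, -0.028 without high 6 and -0.023 without low 4, and SLA-DMB to -0.038 without high 5. Without high 3 and high 5 the r with SLA-DRA turned to 0.061 for the brighter SLA-DMA probe set, -0.095 for SLA-DOA, 0.44 for class II transcription factors, -0.014 for costimulation, -0.35 for the interferon gamma response and -0.50 for luteal markers. It was 0.53 for class I, which no longer passed, and 0.78 for the dimmer SLA-DMA probe set, which then passed, as it did with quantile normalization (0.64). Without high 2 and high 3, a choice made for the relations after seeing the data, r turned to -0.042 for SLA-DOA, 0.32 for class II transcription factors and -0.23 for luteal markers, and class I (0.66) no longer passed. Centring within groups brought endosomal processing (0.75) and endothelial markers (0.68) past the threshold. The cause was not tested in any of these cases. Dim probe sets lie at the floor of GCRMA, so differences in SLA-DOA and CIITA could not be detected.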
